A study of Homo sapiens with 8 samples.

Results

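The baseline transcriptome of SW480, a line established from a human colorectal adenocarcinoma, was described from the 4 vector control libraries of a series of 8. The vector control group was chosen by its library titles. These cells had been infected with lentivirus and kept under puromycin, as had the 4 libraries of cells overexpressing SPOCK1, a secreted proteoglycan, which were not used here. Cells of both groups grew in DMEM with fetal bovine serum, and all 8 libraries carry the same batch value. Nothing in the labels tells if these 4 came from separate cultures, and the spread among them may therefore be technical. The line stands for one tumour and the group for one infected, drug-selected population, with no normal colon beside it.

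Colon epithelium is renewed from stem cells at the crypt base, where Wnt signalling is high. Daughter cells become absorptive colonocytes or secretory goblet, enteroendocrine and tuft cells under the control of factors such as CDX1, CDX2, HNF4A and ATOH1. Most colorectal cancers carry mutations that keep Wnt signalling active, and lines derived from them retain the mature programme to very different degrees. In bulk RNA, fewer cells of a type and less RNA per cell cannot be told apart, and the same holds for cells within a line that differ in state.

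The libraries held 36390186, 37191599, 36451273 and 41343049 counts for vector control replicates 1 to 4. Levels are given as CPM, counts scaled to a common library size with TMM factors, and, wherever genes are compared with each other, as CPM per kilobase of the gene's summed exons. Errors are SDs over the 4 libraries (n = 4 throughout). A gene is termed detected when its mean reached 1 CPM, at trace level when it had counts but a lower mean, and silent in these libraries when it had 0 counts in all 4. A pooled count of 0 still allows up to 3 counts, or 0.0198 CPM, and covers counting error only. Of 58735 annotated genes, 13242 were detected, 13213 were at trace level and 32280 had 0 counts. Among 19951 protein-coding genes, 59.4% were detected and 21.3% had 0 counts, which is the background for the gene groups below. Their median level was 0.968 CPM per kilobase. SPOCK1 itself had 6, 0, 3 and 6 counts.

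The cells carried an epithelial identity in their RNA. All 8 epithelial markers were detected, with KRT18 at 1423 ± 115 CPM per kilobase, KRT8 at 1221 ± 126 and KRT19 at 580 ± 56.7, the keratins of simple epithelia. The adhesion protein EPCAM stood at 88.0 ± 8.77 CPM per kilobase and the junction protein CLDN7 at 58.8 ± 4.93. CDH1, the E-cadherin of adherens junctions, was much lower at 2.93 ± 0.232 CPM per kilobase. Its CPM were 19.9, 17.6, 16.5 and 18.3 in replicates 1 to 4. VIM, the intermediate filament of mesenchymal cells, was at 44.8 ± 3.73 CPM per kilobase, and its 4 values lay wholly above those of CDH1. Of 7 fibroblast markers none was detected, and COL3A1, DCN, LUM and POSTN had 0 counts. The 5 endothelial markers gave 1 detected gene, VWF at 1.02 CPM, the 8 blood and immune markers gave CD14 at 1.21 CPM, and the 5 neural markers gave SNAP25 at 1.64 CPM. Summed over each list, the level was 0.127 to 0.287 CPM per kilobase for fibroblast markers, 0.0471 to 0.133 for endothelial, 0.710 to 0.936 for blood and immune and 0.436 to 0.535 for neural markers, against 3102 to 3693 for epithelial markers. The members of these endothelial, blood and immune and neural lists with 0 counts were CDH5, KDR, MS4A1 and S100B. At trace level were 2 endothelial, 6 blood and immune and 3 neural markers.

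The most abundant transcripts served translation, the cytoskeleton and glycolysis. By CPM the 10 leading protein-coding genes of the nucleus, with ribosomal protein genes and histones set aside, were EEF1A1 at 10702 ± 826, ACTB at 9229 ± 761, KRT8, GAPDH at 5047 ± 510, ENO1 at 4770 ± 498, KRT5, KRT18, EEF2 at 4467 ± 264, PKM and FLNA. Per kilobase the order began with TMSB10, a thymosin that binds actin monomers, at 3598 ± 363, then the ferritin light chain FTL at 2865 ± 293 and ACTB at 2623 ± 216. The 88 ribosomal protein genes together took 8.59 ± 0.627% of all counts. The 100 most abundant genes held 24.0 ± 0.915%, and 677 genes held 50% of the counts.

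KRT5 was the unusual member of that group. It encodes the type II keratin of basal cells in stratified epithelia and is not a typical gene of the colon. Its CPM were 4668, 5313, 4466 and 4507, with a mean of 1104 ± 91.5 CPM per kilobase. The 4 libraries were high alike, with replicate 2 the highest. Its neighbours in the type II keratin cluster were far lower. KRT6A, the nearest keratin on one side, was at 1.47 ± 0.543 CPM per kilobase and KRT6B at 1.55 ± 0.155, and on the other side KRT71 was at 9.51 ± 0.860 and KRT74 at 9.02 ± 0.284. KRT72 was at trace level and KRT73 had 0 counts. The gene lies at chr12:52514575-52520687 in the deposited coordinates, and shares no exonic sequence with another annotated gene. Of 55 keratin genes, 20 were detected, a smaller share than the 59.4% of all protein-coding genes. TP63, a factor of basal cells, was at trace level with 0.0395 CPM.

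Promoter windows of 6 genes are shown to set genes at very different levels beside each other. They are reference sequence from RefSeq (GRCh38.p14), from 250 bases before to 50 bases after the annotated start, 5′ to 3′ on the gene's strand, with CG dinucleotides in capitals. CDX2 (chr13:27969266-27969565, minus strand) and MSX1 (chr4:4859415-4859714, plus strand) are factors high in these cells, KRT5 (chr12:52520345-52520644, minus strand) is the keratin above, SMAD4 (chr18:51029963-51030262, plus strand) is a signalling gene at trace level, and FABP1 (chr2:88128013-88128312, minus strand) and SI (chr3:165078447-165078746, minus strand) are enterocyte genes with 0 counts.
CDX2: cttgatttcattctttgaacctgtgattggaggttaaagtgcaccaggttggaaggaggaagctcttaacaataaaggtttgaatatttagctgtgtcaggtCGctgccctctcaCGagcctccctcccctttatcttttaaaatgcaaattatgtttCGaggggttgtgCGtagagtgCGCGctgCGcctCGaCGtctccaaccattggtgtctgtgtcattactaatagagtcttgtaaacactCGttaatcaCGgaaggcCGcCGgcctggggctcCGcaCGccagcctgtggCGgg
MSX1: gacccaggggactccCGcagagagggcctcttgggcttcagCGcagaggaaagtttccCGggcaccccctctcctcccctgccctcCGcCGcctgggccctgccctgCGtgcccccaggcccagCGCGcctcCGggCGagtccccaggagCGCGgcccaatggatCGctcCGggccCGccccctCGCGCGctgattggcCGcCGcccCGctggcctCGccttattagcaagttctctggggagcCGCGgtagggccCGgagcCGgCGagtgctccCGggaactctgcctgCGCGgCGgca
KRT5: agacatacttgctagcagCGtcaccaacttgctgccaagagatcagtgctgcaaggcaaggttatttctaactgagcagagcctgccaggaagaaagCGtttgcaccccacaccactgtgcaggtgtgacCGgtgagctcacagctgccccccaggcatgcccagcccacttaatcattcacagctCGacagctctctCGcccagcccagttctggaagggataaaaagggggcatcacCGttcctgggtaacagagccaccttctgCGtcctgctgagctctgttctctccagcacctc
SMAD4: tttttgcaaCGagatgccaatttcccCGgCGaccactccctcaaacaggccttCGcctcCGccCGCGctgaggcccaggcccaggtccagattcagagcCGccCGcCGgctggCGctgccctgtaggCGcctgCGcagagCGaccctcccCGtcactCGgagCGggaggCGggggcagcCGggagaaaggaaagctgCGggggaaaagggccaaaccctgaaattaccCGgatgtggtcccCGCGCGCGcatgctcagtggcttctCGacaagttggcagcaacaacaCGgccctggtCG
FABP1: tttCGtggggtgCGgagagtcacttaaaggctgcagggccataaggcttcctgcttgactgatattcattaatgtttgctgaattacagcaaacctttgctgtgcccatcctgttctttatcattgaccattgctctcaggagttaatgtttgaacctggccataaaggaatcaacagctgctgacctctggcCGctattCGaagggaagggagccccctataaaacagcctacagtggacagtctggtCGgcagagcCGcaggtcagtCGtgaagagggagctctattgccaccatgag
SI: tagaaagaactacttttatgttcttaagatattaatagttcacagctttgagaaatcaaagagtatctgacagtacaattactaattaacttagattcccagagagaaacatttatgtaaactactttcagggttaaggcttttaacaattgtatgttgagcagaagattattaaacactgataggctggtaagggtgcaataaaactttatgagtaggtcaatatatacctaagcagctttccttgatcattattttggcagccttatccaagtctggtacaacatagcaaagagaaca

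These windows held 16 CG dinucleotides for CDX2, 31 for MSX1, 7 for KRT5, 28 for SMAD4, 7 for FABP1 and 0 for SI. Promoter windows were matched for 14905 of 19938 nuclear protein-coding genes. The median number of CG dinucleotides was 5 in genes with 0 counts, 11 in genes at trace level, 24 at 1 to 10 CPM, 27 at 10 to 100 CPM and 29 at 100 CPM or more. Fewer than 10 stood in 64.9% of windows of genes with 0 counts and in 6.07% of windows of genes at 100 CPM or more. The letters TATAAA, searched on both strands, stood in 20.6% of windows of genes with 0 counts, 13.4% at trace level, 6.40% at 1 to 10 CPM, 4.00% at 10 to 100 CPM, 5.77% at 100 CPM or more and 9.37% of all windows. Of the 6 printed windows only that of FABP1 holds them. KRT5, at 7 CG dinucleotides and 1104 CPM per kilobase, lies below the 25th percentile of 21 for genes at 100 CPM or more. So does CDX2, at 16 and 106 CPM. SMAD4, at 28, lies above the 75th percentile of 25 at trace level. SI, at 0, lies below the 25th percentile of 2 for genes with 0 counts. MSX1 and FABP1 lie between these percentiles for their level.

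Of 1553 genes with a transcription factor family in the deposited annotation, 1022 were detected, or 65.8%, near the 59.4% of all protein-coding genes. The share was 69.4% for the 630 C2H2 zinc finger genes and 85.4% for the 48 bZIP genes, but 48.2% for the 193 homeobox genes, 46.5% for the 101 bHLH genes and 46.8% for the 47 forkhead genes. The highest per kilobase were YBX1 at 1094 ± 57.2, HMGA1 at 822 ± 62.3 and ATF4 at 191 ± 13.4. CNBP followed at 183 ± 12.2, then SP5, a target gene of Wnt signalling, at 150 ± 9.05 and SLC2A4RG at 132 ± 10.4. MSX1 came next at 127 ± 5.63, then MYC at 116 ± 10.7.

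The intestinal factor network was partly on. Of 39 intestinal and endodermal factors, 17 were detected, 14 were at trace level and 8 had 0 counts, a detected share of 43.6% against 59.4% of all protein-coding genes. The detected members were led by ASCL2, the bHLH factor of crypt stem cells, at 97.9 ± 6.73 CPM per kilobase (88.1, 102, 98.8 and 103 in replicates 1 to 4). SOX9, a factor of crypt progenitors, was at 33.7 ± 3.99, with 38.1, 35.8, 29.5 and 31.2. CDX2, the homeobox factor that sets intestinal identity, was at 25.7 ± 1.90, with 23.2, 26.1, 25.5 and 27.8, and KLF5 was at 20.1 ± 2.31, with 22.0, 21.4, 16.8 and 20.1. The ranges of ASCL2, SOX9, CDX2 and KLF5 did not overlap, so this order held in every library. HNF4A, a driver of enterocyte genes, was lower at 5.33 ± 0.304 CPM per kilobase.

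The 8 factors with 0 counts were 20.5% of the list, near the 21.3% of all protein-coding genes. CDX1, the paralogue of CDX2, had 0 counts in all 4 libraries, and so did GATA4, GATA5, HNF4G, ATOH1, NEUROD1, INSM1 and PAX4. ATOH1 is required for secretory cells, and NEUROD1 and INSM1 act in enteroendocrine cells. GATA6 had 0.348, 0.383, 0.761 and 0.197 CPM, and so stayed under 1 CPM in each library. FOXA2 was detected at 3.57 ± 0.283 CPM per kilobase and PDX1, a factor of duodenum and pancreas, at 2.74 ± 0.503. Of 16 pairs of detected neighbours in the order of levels, 9 had ranges that did not overlap.

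**Figure D1:**
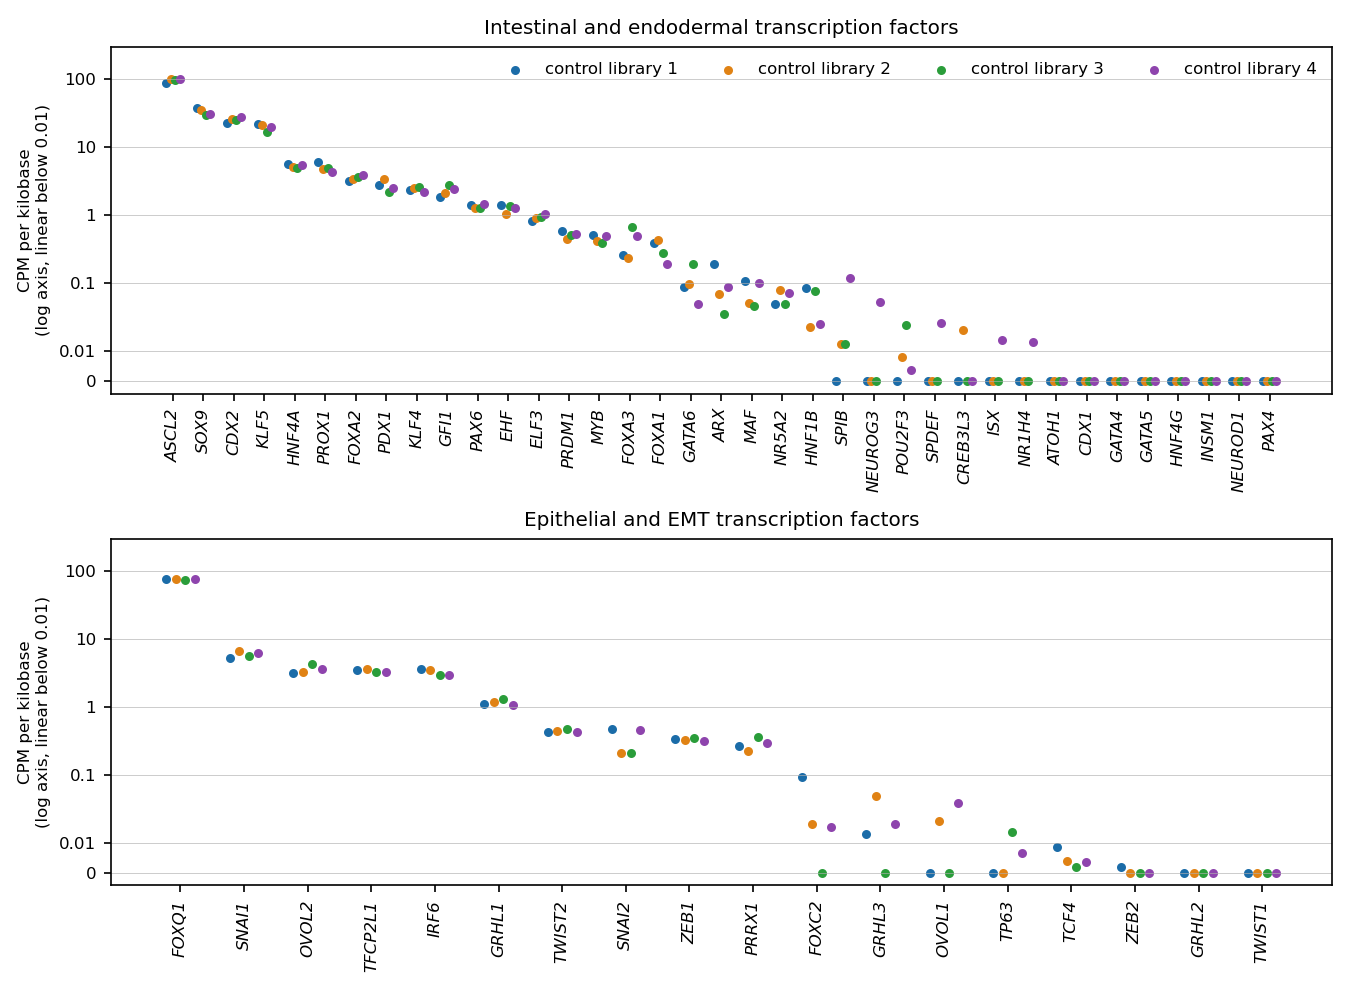
Levels of 37 intestinal factors and of the 18 epithelial and EMT factors, in CPM per kilobase on a log axis that is linear below 0.01. Each point is one of the 4 control libraries. ASCL2 at 97.9 and FOXQ1 at 76.2 lead, and 8 intestinal factors and 2 EMT factors sit at 0 in every library.

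Factors tied to epithelial state and to epithelial-mesenchymal transition (EMT) were mixed. Of 18, 9 were detected and 2 had 0 counts. FOXQ1, a forkhead factor induced by Wnt signalling, stood far above the rest at 76.2 ± 1.22 CPM per kilobase, with a range of 74.8 to 77.4. The EMT factor SNAI1 was at 6.03 ± 0.626 and the epithelial factor OVOL2 at 3.58 ± 0.491. ZEB1, a repressor of E-cadherin, was present at a low and even level, with 2.95, 2.79, 2.99 and 2.71 CPM and 0.330 ± 0.0153 CPM per kilobase. TWIST1 and GRHL2, an EMT factor and an epithelial factor, both had 0 counts, and ZEB2 had 0.0134 CPM.

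Factors of other lineages were present beside the intestinal ones. Of 42 such factors, 21 were detected (50.0%, against 59.4% of protein-coding genes), 11 were at trace level and 10 had 0 counts. MSX1, a homeobox factor of limb and craniofacial tissue, had 257, 264, 284 and 275 CPM, or 127 ± 5.63 CPM per kilobase, above ASCL2 in each library. PITX1, a homeobox factor of the hindlimb, followed at 56.4 ± 5.39, then RUNX3 at 17.9 ± 1.18 and GATA2, known from blood cells, at 17.3 ± 0.808. TBXT, the brachyury factor of mesoderm, had 18.5, 20.6, 20.3 and 22.5 CPM (7.79 ± 0.616 CPM per kilobase). SOX2, a stem cell factor of foregut and neural tissue, had 3.32, 3.66, 3.10 and 3.15 CPM. MYOD1, PAX3, PAX7, OLIG2 and NKX2-5 were among those with 0 counts.

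HOX genes, which mark position along the body axis, were the most widely expressed of the factor lists. Of 39, 31 were detected (79.5%), 6 were at trace level and HOXD3 and HOXD4 had 0 counts. The peak was in the middle of the HOXB cluster, with HOXB8 at 41.6 ± 2.68 CPM per kilobase, HOXB7 at 34.7 ± 2.01 and HOXB9 at 19.8 ± 0.971. The values of HOXB8 (40.4, 44.2, 38.4 and 43.5) lay above those of HOXB7 (32.0, 34.8, 35.3 and 36.8), which lay above those of HOXB9 (18.6, 20.1, 20.9 and 19.5). Detected were 10 of 11 HOXA, 9 of 10 HOXB, 8 of 9 HOXC and 4 of 9 HOXD genes. Summed over clusters, paralogue groups 7, 8 and 9 stood at 42.7, 46.7 and 42.8 CPM per kilobase, and neither group 12 gene was detected. All 4 group 13 genes, the most posterior, were detected, led by HOXB13 at 3.21 ± 0.186. HOXD3 and HOXD4 share 74.1% and 80.5% of their exonic length with other annotated genes, a condition that went with low counts across the table, as described below.

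**Figure D2:**
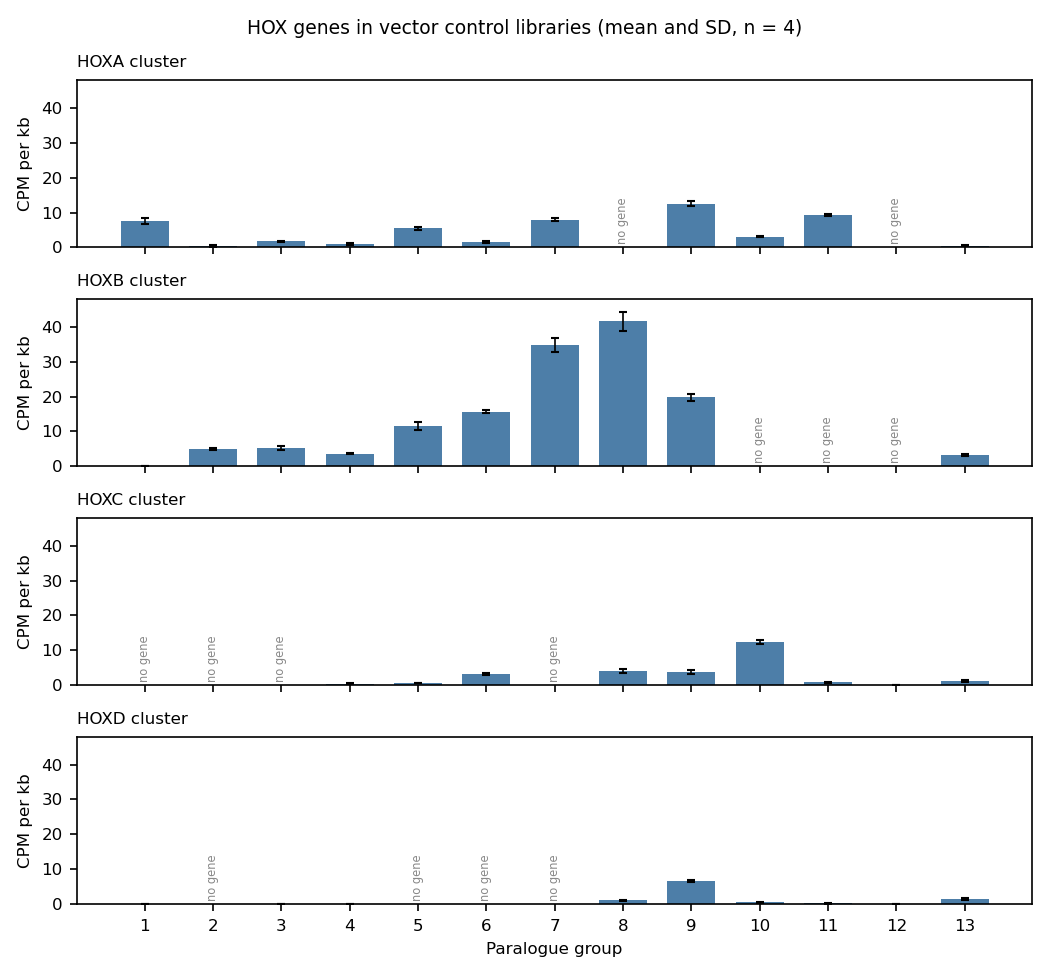
Mean level of the 39 HOX genes in CPM per kilobase by paralogue group, one panel per cluster, with bars for the mean and whiskers for the SD over 4 libraries. The highest bars are HOXB8 at 41.6 and HOXB7 at 34.7, and positions without a gene are marked.

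Among receptor tyrosine kinases, 33 of 58 were detected (56.9%), 16 were at trace level and 9 had 0 counts. Ephrin receptors led the list, with EPHA2 at 36.1 ± 3.00 CPM per kilobase, EPHB6 at 29.6 ± 1.19 and EPHB4 at 23.4 ± 0.609. EPHA2 ranged from 31.8 to 38.3 and EPHB6 from 28.0 to 30.9, so EPHA2 was above EPHB6 in all libraries. The growth factor receptors were lower. MST1R, the receptor of the growth factor MST1, had a mean of 17.4. FGFR4 was at 12.7 ± 1.16, AXL at 10.3 ± 0.796, ERBB2 at 8.22 ± 0.593, EGFR at 7.15 ± 1.24 and MET, the receptor of hepatocyte growth factor, at 1.91 ± 0.225. EGFR had 110, 93.2, 79.2 and 75.9 CPM, highest in replicate 1, with a coefficient of variation (CV, the SD over the mean) of 17.3%. ERBB4, KDR, TIE1 and ROS1 had 0 counts.

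Of 14 TGF-beta and BMP receptors 9 were detected and none had 0 counts. The activin receptor ACVR1B was at 15.7 ± 0.571 CPM per kilobase, above TGFBR1 at 6.59 ± 0.958 and TGFBR2 at 6.32 ± 0.366, whose ranges overlapped. Of 43 cytokine, TNF and Toll-like receptors 24 were detected, and TNF receptors led. TNFRSF12A, the receptor of the cytokine TWEAK, was at 135 ± 7.67, TNFRSF1B at 74.8 ± 3.77 and TNFRSF1A at 21.1 ± 1.17. LIFR and IL7R had 0 counts. Of 48 nuclear receptors 28 were detected, with PPARD at 42.8 ± 1.43, ESRRA at 41.9 ± 3.32 and NR1H2 at 40.5 ± 4.29, which overlapped. VDR, the vitamin D receptor, was at 33.0 ± 2.01. NR1H4, the bile acid receptor, was at trace level and NR1I2, the xenobiotic receptor PXR, at 0.

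Gut G protein-coupled receptors were sparser, with 19 of 47 detected (40.4%) and 10 at 0. CXCR4, a chemokine receptor, had 49.7, 54.4, 49.5 and 52.3 CPM (23.1 ± 1.05 CPM per kilobase), and NTSR1, the neurotensin receptor, was at 17.3 ± 0.883. LPAR2, a receptor of lysophosphatidic acid, was at 8.37 ± 0.418 and CCR7 at 5.40 ± 0.168. The crypt stem cell receptor LGR5 had 0, 0.0547, 0 and 0.0493 CPM, while its paralogue LGR6 was detected at 4.60 ± 0.182 CPM per kilobase and LGR4 at 0.657 ± 0.0973.

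Growth factors were present in part. Of 74, 36 were detected (48.6%, against 59.4% of protein-coding genes) and 24 were at trace level. The 14 with 0 counts were 18.9% of the list, near the 21.3% of all protein-coding genes. HDGF, a heparin-binding growth factor found mainly in the nucleus, was highest at 203 ± 18.8 CPM per kilobase. FGF19, a hormone made by the ileum that represses bile acid synthesis in the liver, had 387, 447, 365 and 406 CPM, or 164 ± 14.1 CPM per kilobase. FGF3, an embryonic fibroblast growth factor, was at 82.0 ± 7.09, with 76.1, 81.0, 78.7 and 92.2 per kilobase. BMP7 stood at 52.7 ± 1.05, MDK at 48.9 ± 3.35, TGFB1 at 35.1 ± 2.99 and BMP4 at 30.9 ± 1.29. HGF, PTN, FGF7 and FGF10 had 0 counts.

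FGF19 and FGF3 lie close together on chromosome 11, in a stretch chosen for a closer view after these values were seen. In order along the chromosome, MYEOV was at 29.6 ± 1.76 CPM per kilobase, CCND1, which encodes cyclin D1, at 217 ± 21.5, LTO1 at 3.99 ± 0.409 and FGF19 at 164. FGF4 followed with 0 counts, then FGF3 at 82.0 and ANO1, a chloride channel, at 20.7 ± 1.83. FGF4 was thus the silent gene between the 2 expressed FGF genes. Gene copy number was not measured here.

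Ligands and receptors were set beside each other in 45 known pairs, chosen after levels were known. Both members were detected in 20 pairs, the receptor alone in 13, the ligand alone in 6 and neither in 6. Of all protein-coding genes 59.4% were detected, and no share over other pairs of genes was computed. These counts therefore describe the chosen pairs only. FGF19 met its receptor FGFR4, but KLB, the co-receptor that FGF19 uses in the liver, had 0, 0.0547, 0 and 0.0493 CPM. TGFA at 14.7 ± 1.18 CPM per kilobase was the highest of the EGFR ligands in the pairs, with AREG and HBEGF at 0.720 and 0.702 and EGF and EREG at trace level. GAS6 at 12.1 met AXL at 10.3, and SHH at 2.35 met PTCH1 at 6.20 CPM per kilobase. CXCL12 and NTS, paired here with CXCR4 and NTSR1, had 0 counts, and so did HGF, paired with MET. MIF, which also binds CXCR4, was not among the pairs. Conversely PDGFA at 19.3 and LIF at 12.7 CPM per kilobase were present where PDGFRA was at trace level and LIFR at 0.

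Cytokines and chemokines were mostly low, with 15 of 46 detected (32.6%), 22 at trace level and 9 at 0. The sugar-binding galectins LGALS1 (653 ± 70.5 CPM per kilobase) and LGALS3 (59.8 ± 2.66) led, followed by CXCL16 at 17.9 ± 0.942. IL10, an anti-inflammatory cytokine usually made by immune cells, had 21.3, 22.2, 19.8 and 24.8 CPM, at similar height in all libraries. IL6, CCL2, CCL5, CXCL9, CXCL10 and CXCL12 had 0 counts, and CXCL8, CXCL1, IL1B and TNF were at trace level. Of 30 secreted Wnt and BMP modulators 7 were detected (23.3%) and 11 had 0 counts, RSPO1, RSPO2, RSPO3 and GREM1 among them. Those detected included feedback inhibitors of Wnt signalling, with NOTUM at 43.3 ± 2.38 CPM per kilobase and DKK4 at 38.5 ± 3.27, and the antagonist SFRP5 at 21.3 ± 0.870.

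Of 52 matrix proteins, proteases and their inhibitors 35 were detected (67.3%, near the 59.4% of protein-coding genes). IGFBP4 at 206 ± 15.5, the protease inhibitor CST3 at 141 ± 10.4 and IGFBP6 at 127 CPM per kilobase were highest. IGFBP6 had 119, 142, 116 and 132 in replicates 1 to 4, overlapping CST3. The matrix metalloproteases divided, with MMP14 at 14.1 ± 0.559 and MMP2 at 0.292 ± 0.0745 detected, MMP7 and MMP9 at trace level and MMP1, MMP3, MMP10 and MMP13 at 0.

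Genes of mature intestinal cells were rarely expressed. Of 54 absorptive enterocyte and colonocyte genes 8 were detected (14.8%), 24 were at trace level and 22 had 0 counts (40.7%, against 21.3% of protein-coding genes). VIL1, the villin of microvilli, was highest at 11.4 ± 0.483 CPM per kilobase, with 77.6, 84.1, 76.7 and 78.2 CPM, although 44.0% of its exonic length is shared with another gene. USH1C, a scaffold of the brush border, was at 6.30 ± 0.693 and TM4SF5 at 5.03 ± 0.638. FABP1, SI, FABP2, APOB, APOA4, CA1, CA4, AQP8, SLC26A3, CFTR and GUCA2B had 0 counts. They serve fat and sugar uptake, lipoprotein assembly and the salt, acid and water handling of colonocytes. The list joins enterocyte genes of the small intestine with colonocyte genes, and its counts were not split by gut region. With no normal colon measured, these zeros are not read as a loss. CA2 had 0, 0.219, 0.0544 and 0.0985 CPM, and the colonocyte keratin KRT20 had 0.0476. Of the 8 markers of intestinal epithelium 4 were detected, CDX2, VIL1 and HNF4A among them, GPA33, LGALS4 and CDH17 were at trace level and CDX1 was at 0.

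Genes of the secretory lineages were also rarely detected. Of 40 goblet, Paneth, enteroendocrine and tuft cell genes, 4 were detected (10.0%), 19 were at trace level and 17 had 0 counts. Those detected were TFF2 at 1.27 CPM, CHGB at 1.23, CHGA at 1.22 and MUC1 at 1.02, all just over the threshold. MUC2, the main mucin of goblet cells, had 0, 0.273, 0.218 and 0.123 CPM, and TFF3, AGR2, ZG16, CLCA1, GCG, SST and DEFA6 had 0 counts. This list was not split by gut region either, and its zeros are likewise not read as a loss.

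**Figure D3:**
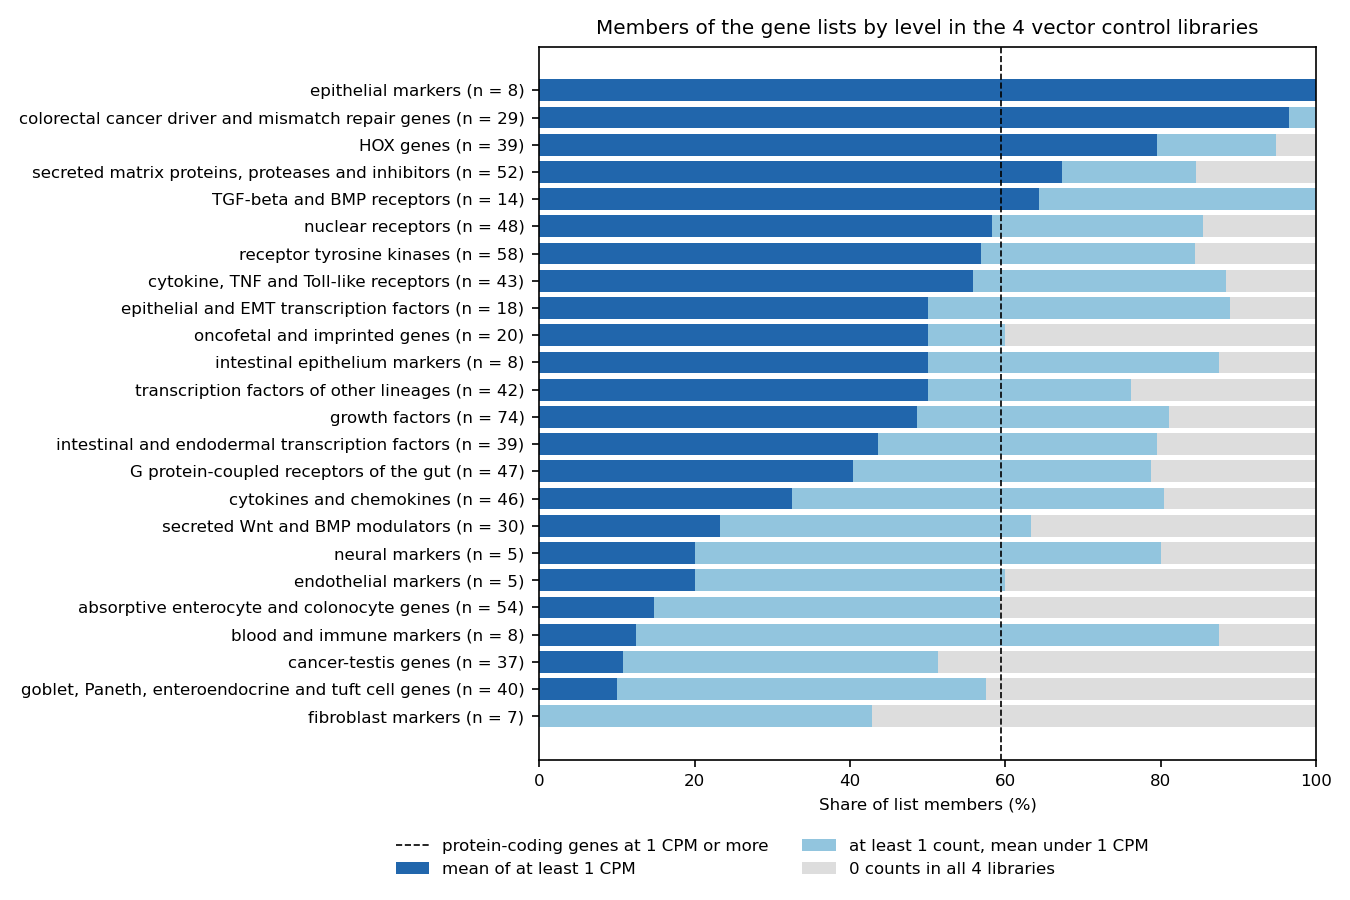
Share of each gene list that was detected (dark), at trace level (light) and at 0 counts in all 4 libraries (grey), with the list size in brackets and a dashed line at the 59.4% of protein-coding genes detected. Epithelial markers fill the bar at 8 of 8, and the secretory list reaches 10.0%.

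Colorectal cancer genes were nearly all expressed, with 28 of 29 driver and mismatch repair genes detected (96.6%). CCND1 stood at 217, MYC at 116 ± 10.7 and CTNNB1, the beta-catenin of Wnt signalling, at 83.9 ± 5.02 CPM per kilobase. APC, the Wnt inhibitor lost in most such tumours, was at 1.05 ± 0.327, with 16.4, 8.83, 16.7 and 10.3 CPM, high in replicates 1 and 3 and low in 2 and 4.

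SMAD4, the shared partner of TGF-beta and BMP signalling, was the exception. It had 16, 21, 18 and 40 counts, or 0.429, 0.574, 0.489 and 0.985 CPM, each under 1 CPM. The other SMAD genes on the list were detected, SMAD3 at 4.92 ± 0.433 and SMAD2 at 0.778 ± 0.0839 CPM per kilobase, against 0.0472 ± 0.0191 for SMAD4. Of its 3 neighbours on either side on chromosome 18, 4 were detected, ME2 at 2.07 ± 0.138, ELAC1 at 0.409 ± 0.00585, MEX3C at 4.06 ± 0.586 and MBD2 at 4.83 ± 0.524 CPM per kilobase. The other two were DCC, at trace level with a mean of 0.0999 CPM, and AC091551.1, which had 0 counts and shares its whole exonic length with other genes. SMAD4 shares 7.37% of its exonic length with other genes. TGFBR1, TGFBR2 and BMPR1A, receptors upstream of it, were detected, and so were the ligands TGFB1, BMP4 and BMP7.

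Among 20 oncofetal and imprinted genes 10 were detected and 8 had 0 counts. The chromatin protein HMGA1 was at 822 CPM per kilobase, and the RNA-binding proteins IGF2BP2 and IGF2BP1 at 22.6 ± 1.44 and 11.1 ± 0.381. H19, AFP, DLK1, MEG3 and LIN28B had 0 counts. Of 37 cancer-testis genes, which are normally limited to the germ line, 4 were detected, namely ACTL8 at 1.85 ± 0.237, MAGEC2 at 1.69 ± 0.161, STAG3 at 0.162 ± 0.0128 and TEX15 at 0.154 ± 0.0397 CPM per kilobase. MAGEA1, CTAG1B and SSX2 had 0 counts. The treatment of reads in repeated sequence is not given, so a 0 in any member with near-identical copies is uncertain.

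Low counts went with exonic overlap. Among protein-coding genes that share no exonic length with another gene, 55.0% of 11097 were detected. The share was 74.3% where up to 25% of the length was shared, 58.9% at 25 to 50%, 35.7% at 50 to 75%, 11.1% at 75 to 90% and 0.381% (2 of 525) over 90%. With an overlapping gene on the same strand, 0 of 475 genes over 90% were detected, and with one on the opposite strand only, 1 of 23. Genes with over 50% of their exons shared numbered 1133, of which 168 were detected. MIF, a cytokine, had 2.01 ± 0.401 CPM with 61.9% of its length shared, in part with MIF-AS1, which had 0.314 CPM. IFNAR2, a subunit of the type I interferon receptor, had 0.613 CPM with 83.2% shared, and IL10RB, a subunit of the IL10 receptor, had 0.162 CPM with 38.1% shared. How reads in shared exons were counted is not given in the sources used here, so a low value of these genes is not read as low expression, and its cause was not tested.

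**Figure D4:**
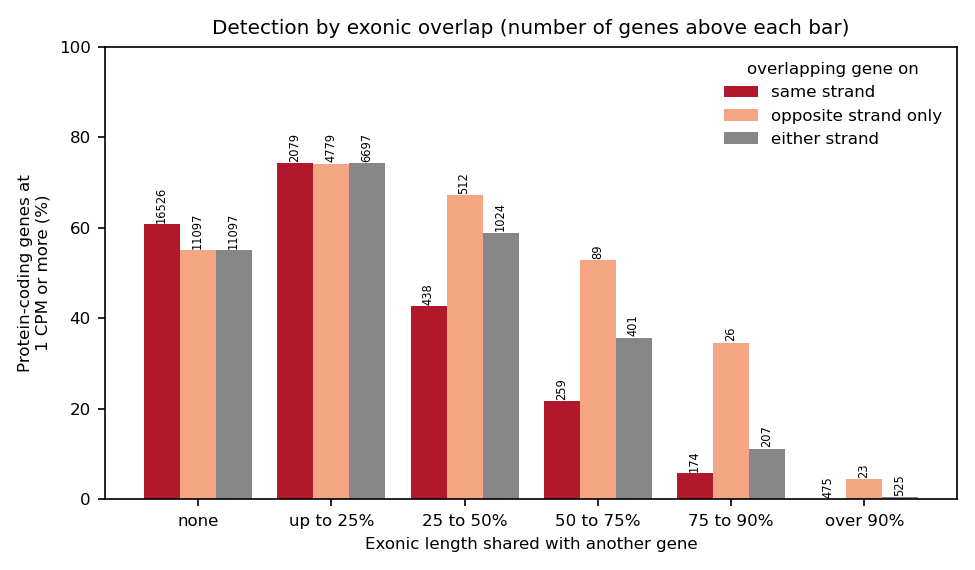
Share of protein-coding genes detected (1 CPM or more) by how much of their exonic length lies in another annotated gene, for overlap on the same strand, on the opposite strand only and on either strand. Numbers above the bars are genes, and on either strand the share was 55.0% without overlap and 0.381% over 90%.

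The 4 libraries were close to each other for most genes. Pearson's r of log2 CPM across genes was 0.991 to 0.995, a value over genes that are not independent. The biological coefficient of variation, estimated with edgeR over 15873 genes, was 13.2%. For pairs of libraries it ran from 7.73% for replicates 2 and 4 to 14.9% for replicates 1 and 4, so replicates 2 and 4 were the most alike. Among 8667 protein-coding genes at 10 CPM or more, the median CV was 8.26%. By level it fell from 22.5% at 1 to 3 CPM, where counting error alone gives 12.2%, to 6.87% at 100 to 300 CPM, where counting error gives 1.32%. The most even genes included TFG, ZNF316, FBXL19 and PRCP. TFG, which acts in transport from the endoplasmic reticulum, had 74.5, 74.6, 74.1 and 73.9 CPM, with a CV of 0.397%. It was chosen as the lowest of these CVs and lies below the 1.89% that counting error alone gives at its depth, so it is no measure of how even the gene is.

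The genes with the largest CV were mostly highest in replicate 3. A CV over 20% was found in 423 genes (4.88%). Of the 100 genes with the largest CV, 94 were highest in replicate 3, and 45 and 44 were lowest in replicates 2 and 4. The matching shares over all 8667 genes at 10 CPM or more are not given here. These counts therefore describe only the 100 genes, which were picked by their spread. HAT1, a histone acetyltransferase, had 48.4, 42.4, 134 and 48.6 CPM, HMMR, a spindle protein and hyaluronan receptor, 34.7, 29.6, 87.1 and 29.4, and LARP7, which binds 7SK RNA, 8.28, 7.16, 22.6 and 7.04. In each the other libraries lay close together and replicate 3 apart. EIF3E, a subunit of a translation initiation factor, had 118, 114, 263 and 121 CPM. Genes at least 1.5-fold above the mean of the other libraries numbered 166 in replicate 3, 21 in replicate 1, 0 in replicate 2 and 3 in replicate 4. Genes lower by that factor numbered 3 in replicate 3, 7 in replicate 1, 21 in replicate 2 and 51 in replicate 4.

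GC content moved with this spread. The 100 genes with the largest CV had a median GC content of 37.8%, against 49.5% of all genes at 10 CPM or more, and the 166 genes high in replicate 3 had 37.5%. In the fifth of genes lowest in GC content, log2 CPM deviated from the mean of the libraries by 0.10, -0.11, 0.16 and -0.15 in replicates 1 to 4, and in the fifth highest in GC content by -0.065, 0.057, -0.049 and 0.057. Replicates 1 and 3 thus lay on one side and 2 and 4 on the other, as for APC. Without replicate 3 the count of genes with a CV over 20% was 350. It was 481 without replicate 1, 598 without replicate 2 and 401 without replicate 4. The median CV was lowest without replicate 1, at 6.77%, against 8.04% without replicate 3. The part of GC content in the spread of single genes was not tested.

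U2AF1 and SMN1, which have near-identical copies, were also uneven, and SMN1 was chosen after its values were seen. The splicing factor U2AF1 had 33.7, 4.76, 3.37 and 21.9 CPM, the largest CV of all at 91.3%, and its copy U2AF1L5 had 11.9, 22.9, 13.3 and 37.5. SMN1 had 8.92, 23.6, 27.9 and 11.3 CPM and its copy SMN2 10.4, 8.83, 9.05 and 10.6, a CV of 9.29% that is near the median. Reads from such copies may be assigned to either gene, so the levels of these 4 genes are uncertain. Any part of this in the unevenness of U2AF1 and SMN1 was not tested.

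**Figure D5:**
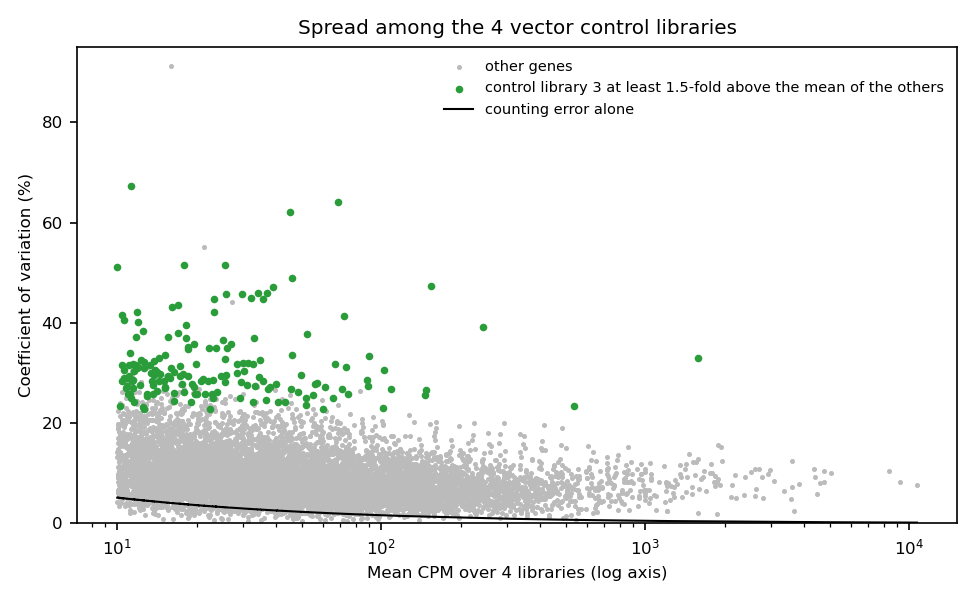
CV over the 4 control libraries against mean CPM (log axis) for 8667 protein-coding genes at 10 CPM or more, with a line for counting error alone. Green points are the 166 genes at least 1.5-fold above the mean of the other libraries in replicate 3, and the highest grey point is U2AF1 at 91.3%.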

How the data were processed

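RNA was measured by sequencing in SW480 cells. The authors deposited whole-number read counts per gene, not normalized, with gene lengths. Per the submitters' processing notes, reads passed through CASAVA, HISAT2 (2.0.5) and featureCounts (1.5.0-p3). Not given in the sources used here are genome build, strand setting and treatment of reads in shared or repeated sequence. The deposited gene length, a value in bases, equalled the summed exon length of GENCODE release 29 in all 58735 genes, and coordinates are those deposited. The sum of exons can exceed the transcript made, which lowers a level per kilobase.

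Only the 4 vector control libraries were read, grouped by title. Library sizes were scaled with TMM (edgeR 4.0.16, R 4.3.3), and CPM and CPM per kilobase were computed, with no pseudocount except 0.5 CPM for log2 values. The common dispersion came from edgeR over genes with a mean of at least 10 counts, in a procedure tested on simulated data. With 1 group there was no test between groups and no p-value.

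The group, the 24 gene lists and the rules were chosen with earlier results of these data known. Of 751 list symbols, 748 were found by symbol, 2 by symbol and current gene ID and 1, BAGE, was not found. The rule named the 3 highest detected members of each list per kilobase, the 10 highest nuclear protein-coding genes on each scale (ribosomal protein genes and histones aside), the 6 most and 6 least variable at 10 CPM or more, and a set of fixed names. Other named genes were chosen after values were seen. Some genes that the rule names are not reported here, but stay in the counts and medians.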

Additional observations from a re-analysis of the deposited data

Results flagged for a closer look

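In 9 of 135 sets of 4 library values checked, the gap between the extreme library and its nearest neighbour, as a share of the whole range, passed Dixon's critical value for 4 values. Chance alone passes about 1 set in 20. Replicate 3 stood apart for HAT1 (0.932), LARP7 (0.921), HMMR (0.907) and EIF3E (0.948), which were named for their spread or chosen after their values were seen. Replicate 1 stood apart, with lower values, for the cancer-testis gene ACTL8 (0.949; 2.79, 3.69, 3.64 and 3.67 CPM) and for HOXB13 (0.849; 10.2, 11.5, 11.5 and 11.3 CPM). Replicate 1 was apart and higher for PTCH1, the hedgehog receptor (0.871; 121, 95.4, 98.7 and 96.1 CPM). HOXB13 and PTCH1 were also chosen after their values were seen. Among library measures, the total count of replicate 4 (0.838) and the number of genes with a count in replicate 2 (0.903, at 21526 genes against up to 21938) were apart.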

How the results depend on the processing

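Values rest on 1 line and 4 libraries, so the precision of silent genes is set by depth and that of abundant genes by the spread among libraries. No paired analysis was possible because only 1 group was used and no result comes from a test. Unscaled, RLE and upper-quartile library sizes moved no count of detected genes by over 1.5 times, no list median and no named gene's level beyond the spread among libraries, and gave 13242 to 13246 detected genes. Without mitochondrially encoded and ribosomal RNA genes, the HOX median was 3.16 CPM per kilobase and the 100 leading genes held 22.7% of counts. A threshold of 0.5 CPM gave 14533 detected genes and 2 fibroblast markers, and 2 CPM gave 12024 genes. At 2 CPM, 0 goblet, Paneth, enteroendocrine and tuft cell genes, 0 endothelial, 0 blood and immune and 0 neural markers and 2 cancer-testis genes were detected. Asking for 1 CPM in each library left 12659 genes, 1 secretory gene (goblet, Paneth, enteroendocrine and tuft cell list), 0 endothelial and 0 blood and immune markers. At 1 CPM per kilobase, detected members were 13 of the factors of other lineages, 4 absorptive, 1 goblet, Paneth, enteroendocrine and tuft cell gene, 0 endothelial, 0 blood and immune and 0 neural markers and 2 cancer-testis genes.

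As TPM, a rescaling by 3.18 to 3.55 per library, list medians became 0.326 for intestinal factors, 1.03 for epithelial and EMT factors, 0.609 for factors of other lineages, 10.2 for HOX genes, 2.50 for receptor tyrosine kinases, 1.78 for TGF-beta and BMP receptors, 1.76 for cytokine, TNF and Toll-like receptors, 1.93 for nuclear receptors, 0.141 for G protein-coupled receptors, 0.624 for growth factors, 0.251 for cytokines and chemokines, 0.0156 for Wnt and BMP modulators and 15.1 for matrix proteins. They were 0.0129 for absorptive and 0.0146 for secretory genes, 245 for epithelial, 0.00505 for endothelial, 0.0481 for blood and immune and 0.00748 for neural markers, 0.699 for oncofetal genes, 21.2 for drivers and 2.94 for intestinal epithelium markers. These medians moved by construction. Of 144 named gene levels, 13 moved beyond their SD without mitochondrially encoded and ribosomal RNA genes. Leaving out each library in turn, the median of intestinal factors ran from 0.0666 to 0.105 CPM per kilobase (lowest without replicate 1), detected endothelial markers from 0 to 1 (VWF, kept only without replicate 3) and the neural median from 0 to 0.00302 (lowest without replicate 3). Medians near 0 moved by over 1.5 times when 1 library was left out. The absorptive median fell from 0.00389 to 0.000931 CPM per kilobase without replicate 3, the secretory median from 0.00442 to 0.00196 without replicate 2 and 0.00222 without replicate 3, the Wnt and BMP modulator median from 0.00465 to 0.00279 and the blood and immune median from 0.0147 to 0.00939 without replicate 3. The endothelial median fell from 0.00159 to 0 without replicate 4, and the cancer-testis median from 0.00075 to 0 without any 1 library. The biological coefficient of variation ran from 12.2% to 14.3%. Alternatives on exonic overlap and on the median CV were chosen after seeing the data, and leaving out genes with over 50% of their exons shared gave 62.1% of protein-coding genes detected.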

Other observations

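NSMF, which encodes a protein first described as a messenger between synapse and nucleus in neurons, was chosen after its values were seen. It had 3067, 3533, 3263 and 3496 CPM in vector control replicates 1 to 4, or 680 ± 44.3 CPM per kilobase. Of the 5 neural markers SNAP25 was detected at 1.64 CPM, RBFOX3, MAP2 and GFAP were at trace level and S100B had 0 counts. Among non-coding classes, 328 of 7629 lincRNA genes and 344 of 5583 antisense genes were detected, against 11851 of 19951 protein-coding genes, and 284 of 10191 processed pseudogenes were detected. Reads of antisense genes and of the genes they overlap cannot be told apart without a known strand setting. Reads of processed pseudogenes may belong to their parent genes.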
